A study of Mus musculus with 24 samples.

Results

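Portal fibroblasts are the matrix-producing mesenchymal cells of the portal tract, the region of the liver lobule that holds the bile duct, the portal vein and the hepatic artery. The 9 genes described here are commonly used to mark them and were selected by symbol. They are the surface proteins Thy1 and Cd34, the ectonucleotidase Entpd2, elastin (Eln), the elastic-fibre and matrix proteins Mfap4, Fbln1, Fbln2 and Dpt, and the secreted plasminogen-binding lectin Clec3b. Each table lists 49568 genes, and all 9 markers were found in both and passed the filter on low values in both. Most set mesenchyme apart from ductal cells, which does not tell portal fibroblasts from other mesenchymal cells. In PDGFRα+SCA1− mesenchymal cells all 9 were higher than in ductal cells (9.98% of all genes were). In PDGFRα+SCA1+ cells 8 were (9.85% of all genes), the exception being Fbln2. Of 12 stellate cell genes tested, 12 and 10 were higher in these fractions over the same cells. The Entpd2 calls were lost in several alternatives. Between the 2 fractions 0 of 9 markers passed on the values as deposited (0.587% of all genes did). With an error in the scaling of these values undone, Fbln2 passed narrowly, lower in PDGFRα+SCA1+ cells (limma, adjusted p = 0.0484). In the PDGFRα−SCA1+ cells Cd34, Eln, Fbln1 and Fbln2 were also higher than in ductal cells, where 11.5% of all genes were. The call of Fbln1 there was lost in some alternatives.

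The 2 experiments with 24 samples were used, 12 in each. In the homeostasis experiment, 4 populations were sorted from the livers of 3 littermates (A and E male, F female, 12 weeks old, C57BL/6 background), so that n = 3 mice for each. All of these mice, including those giving the ductal cells, were heterozygous for the knock-in B6.129S4-Pdgfratm11(EGFP)Sor/J, in which a nuclear GFP reports Pdgfra, so 1 of the Pdgfra alleles is replaced in every sample. The populations were EpCAM+ ductal cells (DCs), 2 mesenchymal fractions (PDGFRα+SCA1− and PDGFRα+SCA1+) and the PDGFRα−SCA1+ cells, where PDGFRα stands for the GFP reporter and SCA1 is the surface protein encoded by Ly6a, and all were sorted as CD11b−CD45−CD31−. In the transwell experiment, cells of wild type C57BL/6 mice (8 to 12 weeks) gave 6 groups of 2 replicates. DCs were profiled freshly sorted (day 0), as organoids after 15 days alone in the growth-factor rich expansion medium (EM organoids), or as organoids after 15 days on an insert above SCA1+ mesenchymal cells in mesenchymal medium (co-cultured organoids). The SCA1+Msc cells were profiled freshly sorted, after 15 days alone, or after 15 days below DCs, and were sorted without a PDGFRα gate from other littermates than the DCs. Per the methods, SCA1+Msc cells were first expanded in mesenchymal medium before the DCs were added, a period that the 15 days do not count. The methods do not describe this step separately for the cells cultured alone.

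Elastic fibres consist of a core of cross-linked elastin on a scaffold of microfibrils, and the fibulins Fbln1 and Fbln2, Mfap4 and dermatopontin (Dpt) are thought to bind this or the neighbouring collagen matrix. ENTPD2 breaks down extracellular ATP and is known in the liver from the portal fibroblasts around the bile ducts. THY1 and CD34 are membrane glycoproteins of many mesenchymal cells, and CD34 is also well known from endothelial cells.

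The 9 genes are protein coding and lie on GRCm38 (GENCODE M21) as follows. Thy1 (ENSMUSG00000032011.5) lies at chr9:44043384-44048579, Clec3b (ENSMUSG00000025784.5) at chr9:123150946-123157432, Cd34 (ENSMUSG00000016494.9) at chr1:194938819-194961279 and Dpt (ENSMUSG00000026574.5) at chr1:164796644-164824266, all on the plus strand. Entpd2 (ENSMUSG00000015085.8) lies at chr2:25395874-25401321, Fbln2 (ENSMUSG00000064080.12) at chr6:91212455-91272540, Fbln1 (ENSMUSG00000006369.14) at chr15:85205949-85286535 and Mfap4 (ENSMUSG00000042436.12) at chr11:61485431-61488900, also on the plus strand. Eln (ENSMUSG00000029675.12) lies at chr5:134702593-134747323 on the minus strand. Values are reads over all exons of a gene, so no transcript isoform was told apart. Of the exon bases of Entpd2, 612 (28.8%) are shared with Npdc1 on the same strand, and reads there cannot be assigned to either gene. Exon overlaps on the opposite strand were small, with 148 bases for Cd34, 267 for Eln and 89 for Mfap4. The SmartSeq2 libraries do not mark the strand.

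Entpd2 and Fbln2 were the 2 members that were higher in organoids than in fresh DCs, whereas Dpt was abundant in the stroma and nearly absent from organoids. The sequence before the start of Entpd2 and Dpt is therefore shown (RefSeq, GRCm38.p6, plus strand, 5′ to 3′). It covers 250 bases at chr2:25395624-25395873 for Entpd2 and 231 bases at chr1:164796413-164796643 for Dpt. RefSeq and GENCODE place some starts differently. The last 19 of the 250 bases before the RefSeq start of Dpt lie inside the GENCODE gene and were left out, and all 250 of Fbln2 do, so none is shown for it. Capitals mark GGGCGG on either strand (CCGCCC on the reverse), the letters of the GC box.
Entpd2: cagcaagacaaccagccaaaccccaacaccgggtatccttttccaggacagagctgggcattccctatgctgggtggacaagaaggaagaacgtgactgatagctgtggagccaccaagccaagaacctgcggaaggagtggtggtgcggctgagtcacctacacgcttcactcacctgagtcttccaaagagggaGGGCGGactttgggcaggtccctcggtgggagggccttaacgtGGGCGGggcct
Dpt: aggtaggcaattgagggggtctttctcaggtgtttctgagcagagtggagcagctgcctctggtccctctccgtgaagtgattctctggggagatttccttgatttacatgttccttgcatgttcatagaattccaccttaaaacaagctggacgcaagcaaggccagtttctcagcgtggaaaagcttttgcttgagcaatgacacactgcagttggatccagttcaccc
In the RefSeq windows of 300 bases that also hold the first 50 bases of the transcript, GGGCGG occurred 3 times for Entpd2, 2 times for Fbln2 and 0 times for Dpt. TATAAA, searched on both strands, occurred 1 time for Dpt, at position 13 after the start, and 0 times for the other pair. Of 32851 such windows of mouse genes, 35.7% held GGGCGG and 13.6% held TATAAA. CG dinucleotides numbered 13 for Entpd2, 10 for Fbln2 and 4 for Dpt against a median of 7 over all windows. A window was found for 5 of the 9 members, and those of Cd34 (0 GGGCGG) and Fbln1 (2 windows, with 0 and 2) also held 0 TATAAA. These matches describe the letters only.

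Sequencing depth recovered from the files was 19.6 to 25.7 M reads on genes per sample in the homeostasis experiment and 19.3 to 28.0 M in the transwell experiment. A value of 3 reads was taken as the floor of each library, which covers counting error only. The PDGFRα+SCA1− library of mouse A stood apart with 10570 genes at a value of 1 or more, against 11970 and 13073 in the other PDGFRα+SCA1− libraries and 12941 to 14580 in the remaining 9. The sort genes followed the labels for Pdgfra, with means of 82.3 and 74.7 in PDGFRα+SCA1+ and PDGFRα+SCA1− cells and at most 0.0563 in the other populations. Although sorted as CD31−, PDGFRα−SCA1+ cells held Pecam1, the gene of CD31, at 796 ± 116 (SD, n = 3), and a list of 10 endothelial markers summed to 6910 to 9557 there against at most 39.0 in any other homeostasis library. DCs held Epcam at 3032 ± 62.9 (SD, n = 3). The label of the SCA1+Msc samples calls them mesenchymal SCA1+ ductal cells, and at day 0 they held Pdgfra at 102 and Epcam at 83.1, against 0.114 and 2999 in day 0 DCs. Freshly sorted SCA1+Msc cells also carried hepatocyte genes (5 genes, summed TPM 17470 to 21960), which summed to 26.0 to 384 after 15 days, so their share of each library's total changed between the groups compared. The part of these values in the results was not tested.

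The values of the homeostasis experiment are those deposited under the name TPM, which sum to between 847270 and 1173511 per library because the column totals were reused down the table, so they are written as deposited values. In healthy liver all 9 markers were present in every PDGFRα+ library at a deposited value of 10 or more. DCs held 7 of them at less than 1% of the level in PDGFRα+SCA1+ cells, and the exceptions were Entpd2 and Fbln2. In a test across all 17028 genes (limma on log2(value + 1), Benjamini-Hochberg adjusted), 8 of 9 were higher in PDGFRα+SCA1+ cells than in DCs, and 0 were lower. Of all genes tested, 23.8% passed in either direction and 9.85% were higher and 14% lower. Against DCs, PDGFRα+SCA1− cells held 9 of 9 markers higher, where 28.8% of all genes passed and 9.98% were higher and 18.9% lower. Without the PDGFRα+SCA1− library of mouse A this count was 8, since Entpd2 no longer passed (adjusted p = 0.0694). In these bulk samples, fewer cells of a type and less RNA per cell cannot be told apart.

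**Figure D1:**
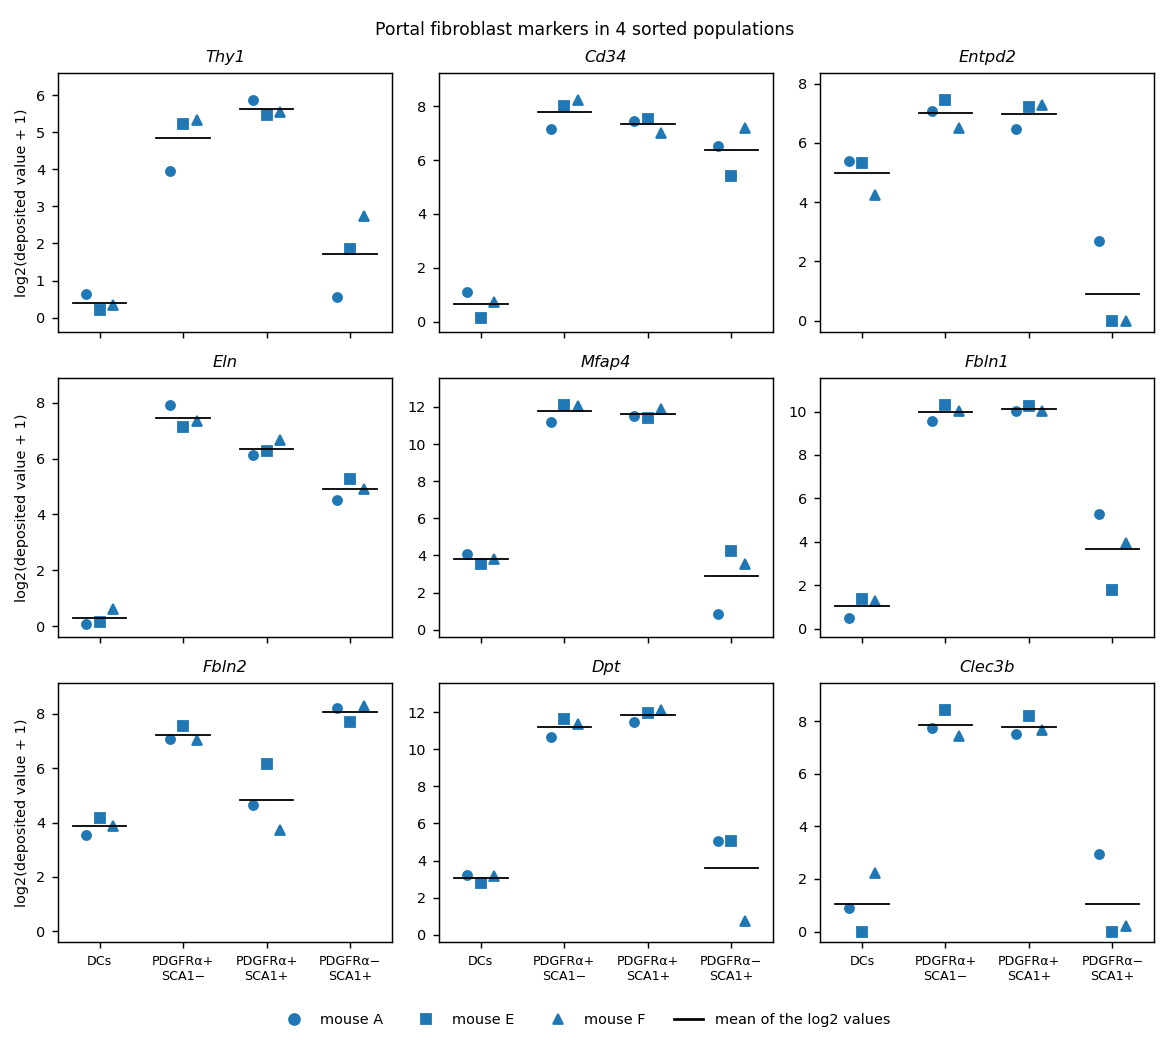
Each panel plots 1 marker as log2(deposited value + 1) in the 4 sorted populations, with a symbol per mouse and a bar for the mean of the log2 values (n = 3 mice each). The markers other than Fbln2 are high in both PDGFRα+ populations, whereas Fbln2 is highest in PDGFRα−SCA1+ cells.

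Dpt, a small matrix protein that binds collagen and decorin, had the highest mean of the 9 in PDGFRα+SCA1+ cells, with values of 2840, 3989 and 4460 in mice A, E and F. It measured 1623, 3233 and 2616 in PDGFRα+SCA1− cells and 8.44, 6.02 and 7.83 in DCs. Every PDGFRα+ library lay far above every DC library, and the mean was 506-fold higher in PDGFRα+SCA1+ cells (log2 difference 8.79 ± 0.88 SE, adjusted p = 1.44e-05). PDGFRα−SCA1+ cells were uneven, with 31.7 and 32.5 in mice A and E and 0.639 in mouse F. Mfap4, a glycoprotein of microfibrils, reached 2885, 2691 and 3787 in PDGFRα+SCA1+ and 2375, 4395 and 4199 in PDGFRα+SCA1− cells, against 16.2, 10.6 and 12.9 in DCs. The PDGFRα+ fractions overlapped with each other and not with DCs, and the mean was 236-fold higher in PDGFRα+SCA1+ cells (7.78 ± 0.66, adjusted p = 3.89e-06).

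Fbln1, a secreted fibulin of matrix and basement membranes, showed the largest ratio to DCs. It measured 1037, 1235 and 1034 in PDGFRα+SCA1+ cells and 0.398, 1.61 and 1.42 in DCs, a 965-fold difference of means (9.06 ± 0.66, adjusted p = 1.27e-06). PDGFRα+SCA1− cells ranged from 746 to 1258 and overlapped with the SCA1+ fraction. PDGFRα−SCA1+ cells held 38.2, 2.38 and 14.4, a spread of more than 10-fold among the 3 mice. Clec3b, the gene of tetranectin, measured 180, 294 and 202 in PDGFRα+SCA1+ and 212, 340 and 172 in PDGFRα+SCA1− cells. Among DCs the values were 0.837, 0 and 3.70, which corresponds to 0 to 24 reads, and in PDGFRα−SCA1+ cells 6.69, 0 and 0.154. Both PDGFRα+ fractions were therefore apart from the other populations (PDGFRα+SCA1+ against DCs 6.75 ± 0.75, adjusted p = 3.38e-05).

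Thy1 had the lowest mean of the 9 in PDGFRα+SCA1− cells, with 14.6, 36.5 and 39.1, and measured 58.0, 42.9 and 45.5 in PDGFRα+SCA1+ cells. DCs held 0.552, 0.158 and 0.267, or 3 to 12 reads, so that the mean was 150-fold higher in PDGFRα+SCA1+ cells (5.23 ± 0.61, adjusted p = 4.54e-05). The 3 libraries of each PDGFRα+ fraction did not overlap with each other, yet the difference of 0.79 ± 0.61 did not pass (adjusted p = 0.684). Cd34 measured 175, 182 and 129 in PDGFRα+SCA1+, 141, 256 and 298 in PDGFRα+SCA1− and 92.0, 41.4 and 146 in PDGFRα−SCA1+ cells. All 3 stromal populations thus held it at least at 41.4, while DCs held 1.14, 0.0922 and 0.651. Eln, the core protein of elastic fibres, measured 69.7, 75.6 and 101 in PDGFRα+SCA1+, 240, 139 and 162 in PDGFRα+SCA1− and 21.9, 37.4 and 29.4 in PDGFRα−SCA1+ cells. The 3 populations did not overlap for Eln, and DCs were far below them at 0.0560 to 0.526 (PDGFRα+SCA1+ against DCs 6.08 ± 0.35, adjusted p = 1.82e-07).

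Entpd2 was measured in every DC library. DCs held it at 40.5, 38.7 and 17.8, which is 24.8% of the mean in PDGFRα+SCA1+ cells, where it measured 87.3, 149 and 155. PDGFRα+SCA1− cells ranged from 90.3 to 172. In PDGFRα−SCA1+ cells Entpd2 was 5.44 in mouse A and 0 in mice E and F, below every DC library. The rise in PDGFRα+SCA1+ cells over DCs was 4.03-fold (2.02 ± 0.65, adjusted p = 0.0416), and that in PDGFRα+SCA1− cells 4.09-fold (2.03 ± 0.65, adjusted p = 0.0350). No PDGFRα+ library overlapped with DCs, but leaving out any 1 of the 6 samples ended the call for PDGFRα+SCA1+ cells (adjusted p up to 0.151), as did a pseudocount of 0.1 (0.281 and, for PDGFRα+SCA1− cells, 0.232). For PDGFRα+SCA1− cells, leaving out any 1 DC library or the libraries of mice A or E ended it (up to 0.125). Npdc1, which shares exon bases with Entpd2, was at 74.5 in DCs, 75.2 and 88.3 in the PDGFRα+SCA1− and PDGFRα+SCA1+ fractions and 134 in PDGFRα−SCA1+ cells, the population in which Entpd2 was lowest.

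Fbln2, a fibulin that binds elastin and is also made by vascular cells, had an order of its own. Its highest values were those of PDGFRα−SCA1+ cells, with 293, 207 and 315, followed by PDGFRα+SCA1− cells with 134, 188 and 129. PDGFRα+SCA1+ cells held 23.7, 69.8 and 12.4, and DCs 10.5, 16.9 and 13.8. The last 2 populations overlapped and did not differ by the test (0.98 ± 0.49, adjusted p = 0.179), although without the PDGFRα+SCA1+ library of mouse F the difference passed (1.53, adjusted p = 0.0303). PDGFRα−SCA1+ cells lay 7.69-fold above PDGFRα+SCA1+ cells with no overlap (adjusted p = 0.000561). They were not told apart from PDGFRα+SCA1− cells by the test, although no library overlapped (adjusted p = 0.253).

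The comparison of the PDGFRα+ fractions asks whether the markers separate the periportal SCA1+ mesenchyme from the other PDGFRα+ cells. By this test 0 of 9 passed in either direction, where 0.587% of all genes passed (0.435% higher and 0.153% lower, 100 of 17028 by limma, 1985 with an unadjusted p under 0.05). Fbln2 came closest. It was lower in PDGFRα+SCA1+ cells of 3 of 3 mice, at 0.177, 0.370 and 0.0960 times the PDGFRα+SCA1− value of the same mouse, with no overlap between the fractions (log2 difference -2.38 ± 0.49, unadjusted p = 0.000397, adjusted p = 0.0587). It passed in 2 alternatives, without the PDGFRα+SCA1+ library of mouse E (-3.04, adjusted p = 0.0166) and on values with the reuse of column totals undone (-2.43, adjusted p = 0.0484). Eln was also lower in 3 of 3 mice, at 0.290, 0.544 and 0.624 times (-1.10 ± 0.35, adjusted p = 0.226). Dpt and Thy1 were higher in 3 of 3 mice, at 1.23 to 1.75 and 1.17 to 3.97 times, and neither passed (adjusted p = 0.849 and 0.684). The other 5 had no common direction in the 3 mice. The share of all genes with a common direction in the 3 mice was not determined. The 95% interval for Mfap4 reached from -1.62 to 1.24 and that for Fbln1 from -1.31 to 1.59 on the log2 scale, so differences of more than 2-fold were not resolved.

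**Figure D2:**
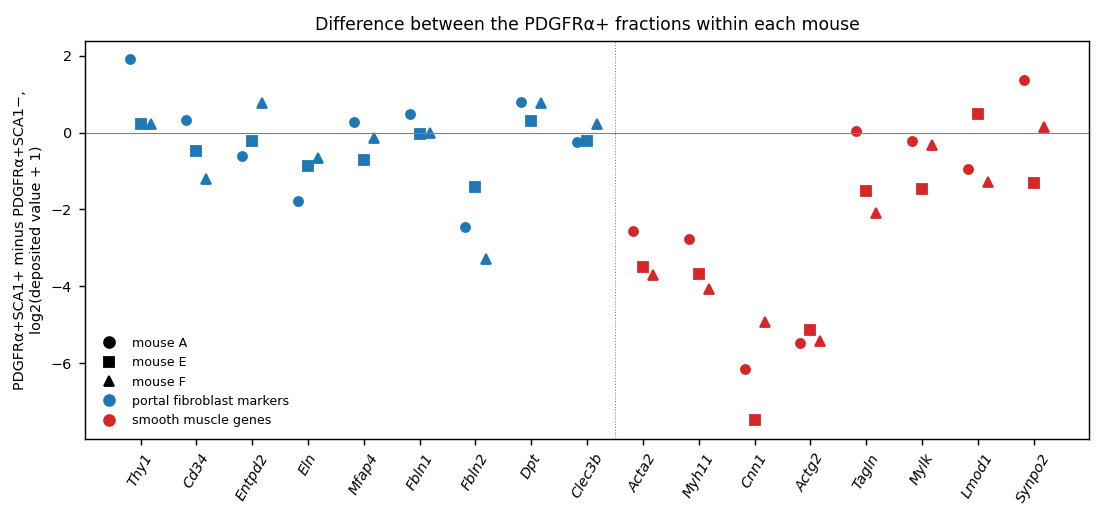
Differences of PDGFRα+SCA1+ minus PDGFRα+SCA1− cells within each mouse are plotted on the log2(deposited value + 1) scale, with a symbol per mouse, for the 9 markers (blue) and 8 smooth muscle genes (red). Fbln2 and Eln lie below 0 in 3 of 3 mice, and so do Acta2, Myh11, Cnn1, Actg2 and Mylk.

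Markers of smooth muscle moved with these differences. Of 8 smooth muscle genes, 4 were lower in PDGFRα+SCA1+ cells and 0 were higher, led by the contractile genes Cnn1 (-6.18 ± 1.09, adjusted p = 0.0285), Actg2 (-5.33 ± 0.50, adjusted p = 0.000707) and Myh11 (-3.50 ± 0.43, adjusted p = 0.00475). The 8 genes summed to 1394 to 3014 in PDGFRα+SCA1− libraries and to 266 to 324 in PDGFRα+SCA1+ libraries, and none of them was at 0 throughout. Their part in the lower Fbln2 and Eln was not tested. Among 21 other elastic-fibre genes 0 were higher and 1 was lower, the hemicentin Hmcn2 (-2.63 ± 0.48, adjusted p = 0.0333). Of 17 other adventitial fibroblast genes 0 passed, with a median difference of -0.39 against 0.15 over all genes tested. Of 12 stellate cell genes tested, Rgs5 alone passed, which was lower.

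Against PDGFRα−SCA1+ cells, PDGFRα+SCA1+ cells held 7 markers higher and 1 lower (Fbln2), where 18.8% of all genes passed (7.86% higher and 10.9% lower). Mfap4 (8.71 ± 0.66), Dpt (8.25 ± 0.88) and Clec3b (6.74 ± 0.75) differed most, with adjusted p of 3.19e-06, 4.01e-05 and 5.62e-05. Cd34 did not pass (0.95 ± 0.46, adjusted p = 0.189), and the libraries overlapped. Eln passed at 1.46 ± 0.35 (adjusted p = 0.0118), and this call ended without the PDGFRα+SCA1+ library of mouse F (adjusted p = 0.0579) or with a pseudocount of 0.1 (0.0757). For PDGFRα+SCA1− against PDGFRα−SCA1+ cells, 8 of 9 were higher and 0 lower, where 21.5% of all genes passed and 7.24% were higher and 14.2% lower. Of these, Cd34 passed narrowly (1.41 ± 0.46, adjusted p = 0.0480) with overlapping libraries, and with the mouse as a block it did not (adjusted p = 0.0574), nor did it in 13 of the other alternatives (adjusted p up to 0.167).

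Compared with DCs, PDGFRα−SCA1+ cells held 4 markers higher (Cd34, Eln, Fbln1 and Fbln2) and 1 lower (Entpd2), where 22.8% of all genes passed (11.5% higher and 11.3% lower). Fbln2 was 19.8-fold higher (4.21 ± 0.49, adjusted p = 5.23e-05), Cd34 148-fold (5.73 ± 0.46, adjusted p = 3.07e-06) and Eln 127-fold (4.62 ± 0.35, adjusted p = 2.02e-06). Entpd2 fell by 4.08 ± 0.65 on the log2 scale (adjusted p = 0.000601). Fbln1 passed at 2.62 ± 0.66 (adjusted p = 0.0125). Without the DC library of mouse A it did not (2.34, adjusted p = 0.0516), nor did it in a fit of only the groups compared (0.0563). Leaving out single PDGFRα−SCA1+ libraries moved 2 further markers past the threshold, Thy1 without mouse A (1.90, adjusted p = 0.0377) and Dpt without mouse F (1.99, adjusted p = 0.000926). The summed level of 7 ductal markers in this population was 79.3, 3784 and 327 in mice A, E and F, so the library of mouse E held far more ductal transcripts than the others.

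Of 21 other elastic-fibre genes, 19 were higher in PDGFRα+SCA1+ cells than in DCs and 0 were lower, with a median log2 difference of 4.75 against -0.28 over all genes tested. Fbln5 (7.96 ± 0.39), which brings elastin to microfibrils, and the elastin cross-linker Lox (7.50 ± 0.37) were among the highest. Efemp1, named after its values were seen, did not pass, with 516 in DCs and 403 in PDGFRα+SCA1+ cells (adjusted p = 0.801). Of 17 other adventitial fibroblast genes 14 were higher and 2 lower (Dpp4 and Msln), and of 6 other ectonucleotidase genes tested 3 were higher and 0 lower. Their levels in PDGFRα−SCA1+ cells included Entpd1 at 392 ± 88.0 (SD, n = 3), the vascular ectonucleotidase CD39, in the population where Entpd2 was lowest.

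These all-gene shares depend on the scaling. With quantile normalization the median difference over all genes moved from -0.47 to -0.13 for PDGFRα+SCA1− against DCs, from -0.28 to -0.10 for PDGFRα+SCA1+ against DCs and from 0.15 to 0.01 between the PDGFRα+ fractions. The share of calls that were higher moved from 34.6% to 46.1% for PDGFRα+SCA1− against DCs and from 74% to 57.4% between the PDGFRα+ fractions. Against PDGFRα−SCA1+ cells it moved from 41.9% to 54.3% for PDGFRα+SCA1+ and from 33.7% to 49.6% for PDGFRα+SCA1− cells. Under that scaling every marker called in these comparisons kept its call, and the difference of Cd34 from PDGFRα−SCA1+ to PDGFRα+SCA1+ cells passed in addition (1.33, adjusted p = 0.0419).

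The shape of the patterns over the 12 homeostasis samples separated the same 2 genes. The correlation of each marker with the mean of the other 8 on the log2 scale was 0.82 to 0.98 for 7 of them, 0.52 for Entpd2 and 0.16 for Fbln2, a description over samples that share mice and populations. In the 12 transwell samples these values were 0.79 to 0.99, 0.37 and 0.25. The genes most like the mean of all 9 over the homeostasis samples were Pcolce (Pearson r = 0.994), Dcn (0.993), Cped1 (0.991), Col14a1 (0.990), Tgfbi (0.989), Des (0.989), Pam (0.988) and Adamtsl2 (0.987), ranked among 10123 genes. By rank correlation 0 of these 8 were among the top 8. Pcolce helps to process procollagen, Dcn is a small proteoglycan and Des an intermediate filament protein of stellate and muscle cells. For Fbln2 the nearest gene was Thrsp (r = 0.947 over the homeostasis samples, -0.62 over the transwell samples), and for Entpd2 it was Cpq (0.979 and 0.0905), so these 2 likenesses were not seen in the other experiment.

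In the transwell experiment the deposited RPKM were scaled to TPM. Freshly sorted SCA1+Msc cells held all 9 markers higher than freshly sorted DCs (9 of 9 higher and 0 lower, where 46.1% of all genes passed, 21.4% higher and 24.7% lower). Summed TPM over the 9 was 7726 to 8359 in these SCA1+Msc libraries and 90.7 to 110 in the DC libraries. As in the other experiment, DCs held Entpd2 and Fbln2 at the largest shares of the stromal mean, 18.4% and 31.3%, and the other 7 at 1.51% or below. The stromal mean of Fbln2 rests on 68.2 and 244 TPM, and against the lower of these alone the share in DCs was 71.5%. Fbln2 passed at 1.40 ± 0.44 (adjusted p = 0.0258), and leaving out either DC library ended the call (adjusted p = 0.0573 and 0.132), as did a fit of only the groups compared (0.123). EM organoids held Entpd2 at 63.5% and Fbln2 at 219.9% of the mean in fresh SCA1+Msc cells (141% to 503% against single libraries for Fbln2). Co-cultured organoids held them at 56.5% and 447% (286% to 1022% for Fbln2). Of the other 7, Thy1, Eln, Clec3b and Dpt held at most 1 read in any organoid library, where the floor of 3 reads corresponds to 0.347% of the stromal mean for Thy1 and to less for the others. Cd34, Fbln1 and Mfap4 were at 0.114% or below in EM organoids. In co-cultured organoids Cd34 was at 0.282% (88 and 0 reads) and Fbln1 at 0.138% (129 and 2 reads). Both rest on the library of replicate 1.

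**Figure D3:**
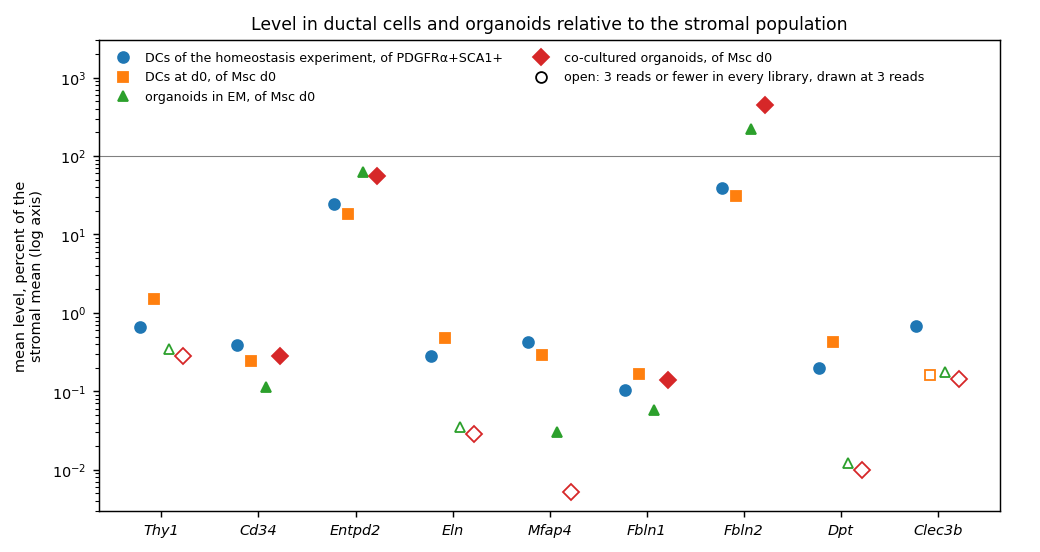
The mean level of each marker in DCs and organoids is plotted as a percent of the mean in the stromal population of the same experiment, on a log axis (PDGFRα+SCA1+ cells for homeostasis DCs, n = 3, and fresh SCA1+Msc cells for the transwell groups, n = 2). Open symbols stand for groups with at most 3 reads in every library and are drawn at the level of 3 reads, and Entpd2 and Fbln2 lie between 18.4% and 447% while the others lie at 1.51% or below.

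After culture of DCs as organoids 2 of the 9 markers were higher and 3 were lower. The same counts were found for EM organoids (44.4% of all genes passed, 27.1% higher and 17.2% lower) and for co-cultured organoids (42.3% passed, 23.2% higher and 19.1% lower), which were compared with the same DC libraries. Fbln2 rose from 55.2 and 42.3 TPM in DCs to 366 and 320 in EM organoids and to 672 and 722 in co-cultured organoids. Each organoid library lay above both DC libraries, by 7.03-fold in EM (2.80 ± 0.44, adjusted p = 0.000676) and 14.3-fold in co-culture (3.82 ± 0.44, adjusted p = 0.000108). Entpd2 rose from 27.6 and 28.1 to 75.8 and 116 in EM organoids and to 78.6 and 92.3 in co-cultured organoids. This was 3.45-fold (1.72 ± 0.23, adjusted p = 0.000225) and 3.07-fold (1.58 ± 0.23, adjusted p = 0.000415), again with no overlap. Npdc1, its neighbour with shared exon bases, was at 63.2 in DCs, 204 in EM organoids and 144 in co-cultured organoids, and so moved in the same direction.

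Dpt, Mfap4 and Eln were detected in fresh DCs and nearly absent from organoids. Dpt was at 7.55 and 10.3 TPM in DCs (112 and 111 reads), at 0 and 0.0908 in EM organoids and at 0.0648 and 0 in co-cultured organoids, where each library held at most 1 read. Both differences passed (-3.23 ± 0.18, adjusted p = 1.39e-06, and -3.25 ± 0.18, adjusted p = 1.63e-06). Mfap4 was at 13.7 and 7.57 in DCs, at 2.26 and 0 in EM organoids and at 0.0581 and 0.138 in co-cultured organoids (-2.64 ± 0.45, adjusted p = 0.00114, and -3.36 ± 0.45, adjusted p = 0.000284). The EM organoid library of replicate 1 accounted for 31 reads of Mfap4, whereas replicate 2 held 0. Eln was at 0.818 and 0.710 in DCs (57 and 36 reads), at 0 and 0.0193 in EM organoids and at 0 in both co-cultured libraries, which is at least 16.9-fold lower against a floor of 3 reads per library. Its adjusted p was 0.0269 in EM and 0.0261 in co-culture, and both calls ended when either DC or either organoid library was left out (adjusted p 0.0646 to 0.0922) and with quantile normalization or RPKM as deposited (up to 0.210). Thy1, Cd34, Fbln1 and Clec3b did not pass, and each was at 3.30 TPM or below in every DC and organoid library.

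Markers of endothelial cells and hepatocytes fell in the same comparison, while those of stellate and smooth muscle cells went both ways. Of 10 endothelial genes, 8 were lower in EM organoids than in DCs and 0 were higher, and their sum was 52.5 to 69.6 in DCs against 2.93 to 6.80 in EM organoids and 8.63 in co-cultured organoids. Of 5 hepatocyte genes, 3 were lower in EM organoids and 4 in co-cultured organoids. Of 13 stellate cell genes, 2 were higher and 4 lower in EM organoids, and 2 were higher and 5 lower in co-cultured organoids. Their sum was 326 to 341 in DCs, 262 to 268 in EM organoids and 1244 to 1392 in co-cultured organoids. These sums rest on few genes. Of the 13, 10 were under 1 TPM in both co-cultured libraries, 8 in both EM libraries and 6 in both DC libraries. Of 8 smooth muscle genes, 1 was higher and 0 lower in EM organoids, and 0 were higher and 1 lower in co-cultured organoids. The part of other cells in the Dpt, Mfap4 and Eln values of fresh DCs was not tested. Among 21 other elastic-fibre genes 3 were higher and 7 lower in EM organoids, and 5 were higher and 5 lower in co-cultured organoids, with medians of -0.28 and -0.03 against 0.12 and 0 over all genes. Among 8 other ectonucleotidase genes 2 were higher and 1 lower in EM organoids, and 4 were higher and 1 lower in co-cultured organoids. The latter included Entpd8 (3.94 ± 0.45, adjusted p = 0.000101), Entpd3 (3.38 ± 0.31, adjusted p = 2.91e-05) and Nt5e (3.04 ± 0.39, adjusted p = 0.000224), the AMP-degrading CD73.

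Co-cultured and EM organoids were compared directly, though the medium as well as the stroma differed between them and the effects of both cannot be told apart. By limma 0 of 9 markers passed, where 12.9% of all genes did (5.73% higher and 7.21% lower, 2348 of 18136, and 4686 had an unadjusted p under 0.05). Fbln2 was 2.03-fold higher in co-cultured organoids with no overlap (1.02 ± 0.44, unadjusted p = 0.0436, adjusted p = 0.177). It passed without either library of fresh SCA1+Msc cells (adjusted p = 0.00131 and 0.00136) and when the 2 organoid groups were fitted alone (0.00125). The fresh SCA1+Msc libraries, at 68.2 and 244 TPM, were the most uneven pair for Fbln2 and entered the shared estimate of the spread. For Entpd2 the difference was -0.14 with a 95% interval from -0.65 to 0.37. Mfap4 passed only without the EM organoid library of replicate 2, at -1.57 (adjusted p = 0.0150).

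**Figure D4:**
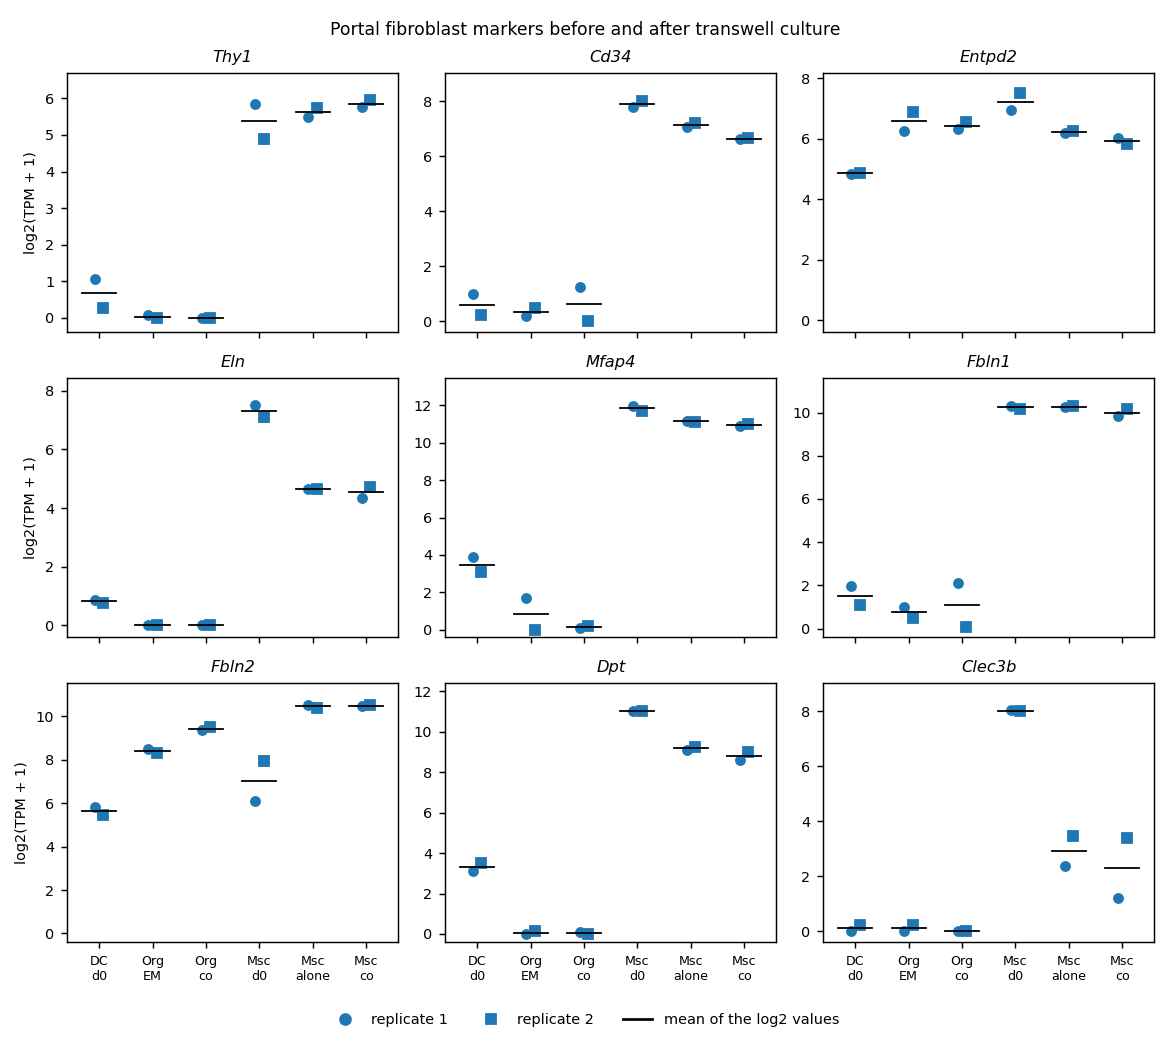
Each panel plots 1 marker as log2(TPM + 1) in the 6 transwell groups, with a symbol per replicate and a bar for the mean of the log2 values (n = 2 each). Fbln2 is higher in all cultured groups than at day 0, while Clec3b, Eln and Dpt of SCA1+Msc cells are lower after 15 days.

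Cultured SCA1+Msc cells held 8 of the 9 markers at 10 TPM or more in every library, in other proportions than fresh cells. After 15 days alone 1 marker was higher and 4 were lower than in fresh cells, where 44.8% of all genes passed (27.4% higher and 17.5% lower), and after co-culture 1 was higher and 5 lower, where 43.3% passed (26% higher and 17.3% lower). Both comparisons share the fresh libraries. Fbln2 was the marker that rose. It measured 68.2 and 244 TPM in fresh cells, 1483 and 1351 after culture alone and 1423 and 1460 after co-culture. The cultured libraries lay within 10% of each other and far above both fresh ones, by 9.08-fold (3.44 ± 0.44, adjusted p = 0.000201) and 9.24-fold (3.47 ± 0.44, adjusted p = 0.000199). With this rise Fbln2 moved from the seventh to the second place in the order of mean TPM of the 9.

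Clec3b fell most. Fresh SCA1+Msc cells held 260 and 253 TPM, cells cultured alone 4.20 and 9.86 and co-cultured cells 1.27 and 9.50, the last pair resting on 8 and 68 reads. All cultured libraries were far below the fresh ones, and the means were 36.5-fold lower alone (-5.10 ± 0.62, adjusted p = 0.000152) and 47.6-fold lower in co-culture (-5.72 ± 0.62, adjusted p = 7.77e-05). Eln went from 181 and 137 to 24.2 in both libraries alone and to 19.4 and 25.5 in co-culture, which is 6.56-fold (-2.65 ± 0.25, adjusted p = 3.37e-05) and 7.06-fold lower (-2.76 ± 0.25, adjusted p = 2.68e-05). Dpt went from 2126 and 2113 to 556 and 618 alone and 387 and 506 in co-culture, or 3.61-fold (adjusted p = 4.33e-05) and 4.75-fold lower (adjusted p = 1.34e-05). Neither gene overlapped between fresh and cultured libraries.

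Entpd2 fell in SCA1+Msc cells, from 123 and 179 TPM to 71.9 and 75.9 alone and 64.0 and 56.0 in co-culture. The fall was 2.05-fold (-0.998 ± 0.23, adjusted p = 0.00560) and 2.52-fold (-1.30 ± 0.23, adjusted p = 0.00135) with no overlap. Npdc1 was at 99.0 in fresh cells and at 325 and 307 after culture alone and in co-culture, and so moved the other way. Cd34 measured 218 and 260 in fresh cells, 132 and 147 alone and 97.5 and 99.5 in co-culture, with no overlap between fresh and cultured libraries. The difference alone did not pass (adjusted p = 0.139), but did in a fit of only the groups compared (0.0148) and on RPKM as deposited (0.00780). That in co-culture passed (-1.26 ± 0.39, adjusted p = 0.0250), though not with a pseudocount of 0.1 (0.393). Leaving out any 1 of the fresh or co-cultured libraries ended the latter call (adjusted p 0.0511 to 0.0993). Mfap4 measured 4047 and 3353 in fresh cells, 2339 and 2204 alone and 1911 and 2084 in co-culture, a ratio of fresh to cultured means of 1.63 and 1.85, which did not pass (adjusted p = 0.244 and 0.147) but did in a fit of only the groups compared (0.0106 and 0.00839).

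Fbln1 and Thy1 did not pass in either comparison. Fbln1 stayed between 909 and 1280 TPM in all 6 SCA1+Msc libraries (alone against fresh 0.01 with a 95% interval from -1.21 to 1.22). Thy1 was 57.1 and 28.7 in fresh cells, 44.2 and 52.9 alone and 53.3 and 61.0 in co-culture, a range in which the fresh and cultured libraries overlapped. Between co-cultured cells and cells cultured alone, 0 of 9 markers passed by limma, where 0.127% of all genes did (0.0937% higher and 0.0331% lower, 23 of 18136, and 1263 had an unadjusted p under 0.05). The difference nearest to the threshold was that of Dpt (-0.40 ± 0.18, unadjusted p = 0.0540, adjusted p = 0.726), and for Fbln2 the interval reached from -0.96 to 1.01.

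**Figure D5:**
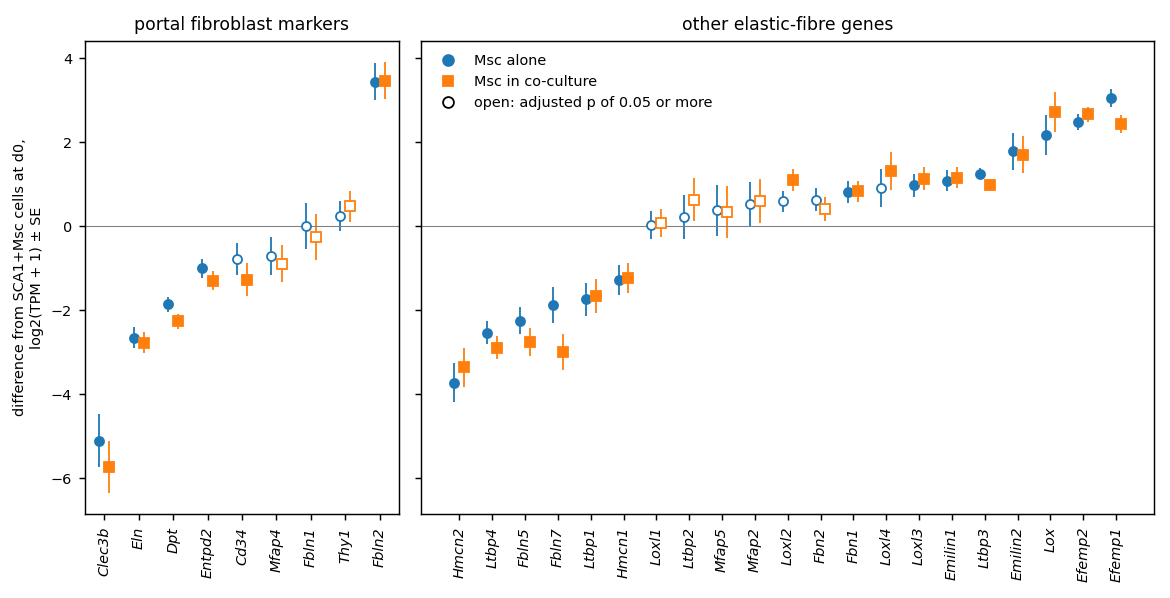
Differences of cultured from fresh SCA1+Msc cells on the log2(TPM + 1) scale are plotted with their SE for the 9 markers (left) and 21 other elastic-fibre genes (right), alone (circles) and in co-culture (squares), with open symbols where the adjusted p was 0.05 or more. Clec3b lies lowest at -5.10 and -5.72 and Fbln2 highest at 3.44 and 3.47 among the markers.

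The other elastic-fibre genes also moved in both directions in culture. Of 21, 8 were higher and 6 lower alone, and 10 were higher and 6 lower in co-culture, with medians of 0.60 and 0.64 against 0.19 and 0.17 over all genes. Efemp1 (3.06 ± 0.21, adjusted p = 4.24e-06), Efemp2 (2.49 ± 0.18, adjusted p = 6.50e-06) and Lox (2.17 ± 0.48, adjusted p = 0.00485) rose most in cells cultured alone, the last of them an elastin cross-linker. Hmcn2 (-3.72 ± 0.46, adjusted p = 0.000175), the latent TGF-β binding protein Ltbp4 (-2.53 ± 0.27, adjusted p = 7.37e-05) and Fbln5 (-2.24 ± 0.33, adjusted p = 0.000460) fell most. The family of fibulins was therefore uneven, with Fbln2, Efemp1 and Efemp2 higher, Fbln5 lower and Fbln1 without a call. Of 17 other adventitial fibroblast genes 2 were higher (Cd248 and C3) and 7 lower alone, among them Dpp4 (-4.75 ± 0.37, adjusted p = 1.06e-05), Gsn (-3.79 ± 0.20, adjusted p = 9.13e-07) and the Hedgehog effector Gli1 (-3.48 ± 0.40, adjusted p = 9.97e-05). Of 8 other ectonucleotidase genes 1 was higher (Alpl) and 4 were lower, led by Entpd1 (-3.93 ± 0.89, adjusted p = 0.00576).

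Genes of the other cell type lists changed with these comparisons. The paper reports smooth muscle actin in expanded PDGFRα+SCA1+ cells and stellate cell markers in this population. Which cells the listed genes came from was not tested. In SCA1+Msc cells cultured alone, 5 of 5 hepatocyte, 5 of 7 ductal and 7 of 10 endothelial genes were lower and 0 were higher, and 9 of 13 stellate cell genes were lower and 2 higher. The endothelial genes summed to 627 to 722 TPM in fresh cells and to 124 to 225 in cultured ones, while Pecam1 was at 75.3 in fresh cells, 63.9 alone and 78.8 in co-culture. Smooth muscle genes summed to 693 to 937 in fresh and 3436 to 4184 in cultured cells, with 3 of 8 higher and 2 lower alone. Their part in the marker values was not tested.

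The change from day 0 to 15 days of co-culture was compared between SCA1+Msc cells and DCs in 1 contrast that shares no library between its arms. The change in SCA1+Msc cells also includes their expansion before co-culture, so the time in culture differed between the arms. For 5 of 9 markers the changes differed, 2 in the positive and 3 in the negative direction, where 28.3% of all genes passed (14.5% and 13.8%). Of these 5, Entpd2 alone was well above the floor in both arms. Clec3b held at most 1 read in any day 0 DC or co-cultured organoid library, so its difference repeats the fall in SCA1+Msc cells. Co-cultured organoids held at most 2 reads of Eln, Mfap4 and Dpt per library. The size of these differences therefore depends on the pseudocount, and that of Eln was 0.29 with a pseudocount of 0.1. For Entpd2 the change was -1.30 in SCA1+Msc cells and 1.58 in DCs, a difference of -2.88 ± 0.32 (adjusted p = 0.000244), so this marker moved in opposite directions in the 2 cell types. For Fbln2 both changes were positive, at 3.47 and 3.82, and did not differ by the test (-0.35 with a 95% interval from -1.75 to 1.05, adjusted p = 0.718).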

How the data were processed

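Bulk RNA was profiled in 24 libraries of 10 groups (SmartSeq2, single-end). Per the labels and the methods, the authors aligned reads to GRCm38/mm10 with STAR 2.5.0a, filtered them with SAMtools and counted them over exons with featureCounts (version 1.6.0 in the submitters' processing notes, whereas the methods cite a release of the Rsubread package). The strand setting and the test were not given in the sources used here. RPKM are what the authors deposited for the transwell experiment, and they were scaled here to TPM, with the same total in every library. For the homeostasis experiment they deposited other values named TPM. These were RPKM divided by column totals reused in a cycle of 12 down the table, at 0.722 to 1.39 times rebuilt TPM. The samples of 1 gene were divided by different totals, so the error does not cancel in a comparison gene by gene. With the totals rebuilt, the mean of Entpd2 was 0.830 times the deposited one in DCs and 1.03 times in PDGFRα+SCA1− cells. The planned analysis took the deposited values for TPM, and they were used as deposited with rebuilt TPM as an alternative. The 4 columns of the authors' means were not used.

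Whole reads could be recovered for 92.9% of low homeostasis values once the totals were rebuilt (13.2% as deposited) and for 93.1% of low transwell values, with a tolerance of 0.02 reads up to 20 reads. This gave 19.6 to 25.7 M and 19.3 to 28.0 M reads per library. Reads of markers are rounded from it. Since RPKM and the other deposited values are not counts, no count model was used.

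A gene was tested where 3 homeostasis or 2 transwell samples reached a value of 1 (17028 and 18136) with limma 3.58.1 in R 4.3.3 on log2(value + 1), with 1 fit over all 12 samples of an experiment, eBayes with trend, two-sided, and Benjamini-Hochberg adjustment over all genes at 0.05. A difference on this scale understates the change of low genes. Errors of differences are SE. Alternatives were a pseudocount of 0.1, a minimum of 5, no filter, quantile normalization, no trend, separate fits of the groups being compared, a replicate block, each library left out, rebuilt TPM and RPKM as deposited. The 6 and 8 comparisons of the experiments were adjusted separately. The fit was tested on simulated data. Other software was Python 3.11.15, pandas 2.3.3, numpy 2.4.6 and scipy 1.17.1.

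The same mice gave all homeostasis populations, and residuals of the same mouse correlated at 0.0373 on average (0.00395 to 0.0973, 18 pairs) against -0.0187 for different mice. Replicate numbers of the transwell experiment come from the labels alone, and the methods take its DCs and SCA1+Msc cells from 2 littermates each and count 2 biological replicates, without saying which animal gave which sample.

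The 9 markers and the other gene lists were chosen with earlier results of these data known. Of each other list, at most the 3 highest and 3 lowest genes past the threshold were to be named. Genes of like pattern were ranked by Pearson r with the mean of the 9 standardized markers among genes that reached 10 in 3 or more samples, leaving out predicted symbols.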

Additional observations from a re-analysis of the deposited data

Results flagged for a closer look

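For 5 markers the change from day 0 to 15 days of co-culture differed between SCA1+Msc cells and DCs by the test of the difference itself (limma, n = 2 per group). Entpd2 differed by -2.88 (adjusted p = 0.000244), with a fall in SCA1+Msc cells and a rise in organoids. Clec3b differed by -5.61 (adjusted p = 0.00152), where DCs held at most 1 read on either day. Eln differed by -1.95 (adjusted p = 0.00354) and fell in both cell types, and with a pseudocount of 0.1 the difference was 0.29. Mfap4 differed by 2.47 (adjusted p = 0.0181), with a called fall in organoids and none in SCA1+Msc cells. Dpt differed by 0.99 (adjusted p = 0.0191), fell in both, and was at -0.37 on RPKM as deposited. Since organoids held at most 2 reads of Eln, Mfap4 and Dpt per co-cultured library, the size of their fall on the log2(value + 1) scale is set by the level in fresh DCs and the pseudocount. Single libraries ended the calls of Mfap4 and Dpt in 3 cases each, and without the co-cultured SCA1+Msc library of replicate 2 the count was 3 in place of 5.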

How the results depend on the processing

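Of 126 differences (9 markers in 14 comparisons) 73 passed, and 61 of these kept direction and call in every alternative. Of 1458 recomputed values of called differences, 1394 kept the call, 62 lost it and 2 changed sign. Those 2 were the differences between cell types in the co-culture change of Eln, 0.29 with a pseudocount of 0.1, and of Dpt, -0.37 on RPKM as deposited. A further 16 differences passed in at least 1 alternative only, and 37 never passed. The count of markers between the PDGFRα+ fractions was 0 and became 1 (Fbln2) with the reuse of totals undone, and 0 to 1 when single libraries were left out. Between co-cultured and EM organoids it was 0, became 1 (Fbln2) in the fit of only the groups compared, and was 0 to 1 with single libraries left out. For the difference in co-culture change it was 5, and 3 to 7 with single libraries left out. The cause was not tested.

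Among uncalled values, leaving out single libraries turned the sign of Dpt in PDGFRα−SCA1+ cells against DCs (0.54, range -0.19 to 1.99), of Fbln1 in co-cultured organoids against DCs (-0.43, range -1.44 to 0.58), of Mfap4 between the organoids (-0.72, range -1.57 to 0.13) and of Fbln2 in the difference of co-culture changes (-0.35, range -1.26 to 0.56). Thy1 passed in both organoid comparisons with a pseudocount of 0.1 (-2.33 and -2.61), at 0 or 1 read per organoid library.

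With the mouse or the replicate number as a block, the counts of markers called were 8, 9, 5, 0, 8 and 7 in the 6 homeostasis comparisons and 5, 5, 0, 5, 6, 0, 9 and 5 in the 8 transwell comparisons. The block ended 1 call, that of Cd34 in PDGFRα+SCA1− over PDGFRα−SCA1+ cells, and changed no other. Over all genes it left 20 of 100 calls between the PDGFRα+ fractions and 5 of 23 between the cultured SCA1+Msc groups. Transwell samples with the same number did not deviate together (mean residual correlation 0.00504, -0.0188 to 0.0295).

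Markers' mean levels stayed within 1 SD for all 36 homeostasis values with the totals rebuilt, at 0.830 to 1.19 times. RPKM as deposited lay at 0.320 to 0.355 times TPM. Of 26 genes named as most alike to the mean or to 1 marker, 25 were not among the top genes by rank correlation. Depth limits Clec3b and Thy1 in DCs and organoids, Eln in homeostasis DCs and organoids, Dpt in organoids and Mfap4 in co-cultured organoids. Several of these values rest on 0 to 3 reads.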

Other observations

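Entpd1, which degrades ATP and ADP on vascular cells, was at 392 ± 88.0 (SD, n = 3) in PDGFRα−SCA1+ cells. The PDGFRα+ fractions held 11.04 ± 3.70 without and 1.79 ± 0.771 with SCA1, and the level of DCs was 0.348 ± 0.558. Its difference between the PDGFRα+ fractions did not pass (-2.09 ± 0.47, adjusted p = 0.0824 by limma). In fresh SCA1+Msc cells it was at 44.6 and 45.1 TPM.

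Efemp1, the gene of fibulin-3, resembled Fbln2 in being present in DCs. It was at 294 TPM in fresh DCs, 441 in EM organoids, 636 in co-cultured organoids and 350 in fresh SCA1+Msc cells, and at 2924 and 1917 in SCA1+Msc cells cultured alone and in co-culture (n = 2 each). Unlike Fbln2, it was at 17.8 ± 22.0 (SD, n = 3) in PDGFRα−SCA1+ cells of the homeostasis experiment. Both genes were singled out after their values were seen.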
